A study of Mus musculus with 7 samples.

Results

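The collagen genes were taken as all genes whose symbol reads Col, a number, the letter a and a number, with nothing after it. This rule found 44 genes among the 56941 genes of the single-nucleus RNA-sequencing (snRNA-seq) tables, and each of the 44 had counts, from 85 transcripts of Col6a4 to 523664 of Col8a1 over all animals. The nuclei came from fresh-frozen tumors that 4 male mice, a model of small cell lung cancer (SCLC, a neuroendocrine lung cancer), had in the lung at endpoint. RP1 and RP2 carried Rb1 fl/fl and Trp53 fl/fl, and RPC1 and RPC2 additionally carried loss of Casp8, which the labels write as Casp8-/- and the methods of the study describe as a conditional allele. All 4 adult mice had inhaled an adenovirus with Cre recombinase under the CMV promoter (Ad5-CMV-Cre), so recombination was limited to infected lung cells and their descendants, and nuclei of stroma and immune cells need not have lost any allele. The comparison of RPC with RP tumors asks what differs when Casp8 is deleted together with Rb1 and Trp53.

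Collagens are secreted or membrane-bound proteins whose 3 chains wind into a triple helix. Fibrillar collagens (types I, II, III, V, XI, XXIV and XXVII) form the cables of connective tissue and are made mostly by fibroblasts, smooth muscle cells and other mesenchymal cells, whereas type IV collagens build the sheet-like basement membrane on which epithelial and endothelial cells sit. In the alveolar wall the basement membrane shared by alveolar type 1 and endothelial cells is part of the air-blood barrier. Other families attach to fibrils, span the cell membrane, form beaded filaments (type VI) or form short chain networks (types VIII and X).

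The 4 animals had 8363, 8874, 10853 and 10164 nuclei (RP1, RP2, RPC1 and RPC2, the order used for every set of 4 values here) after filtering, with a median of 2255, 2223, 3392 and 2767 transcripts per nucleus. Each library pooled nuclei of all 4 animals, so the animal was the replicate, and no barcode was shared between animals. With 2 animals per genotype, an exact two-sided permutation test cannot give a p below 0.333, and tests of a genotype difference rested on edgeR's quasi-likelihood fit of counts summed per animal. Clusters were named by marker genes, and tumor-like nuclei, which lead with neuroendocrine markers, made up 82.4% of all nuclei kept. Levels are given as CPM, the counts of a gene scaled to 1000000 transcripts of the summed nuclei. Casp8 stood at 57.1, 60.8, 91.8 and 66.9 CPM in tumor-like nuclei. The values count transcripts over the whole gene and cannot separate a deleted exon from the rest, so they check neither the loss of Casp8 nor the labels, and the names RP and RPC stand as the labels give them. Neuroendocrine transcripts were also counted in nuclei of every other class.

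Col8a1 encodes a chain of a short chain network collagen known from vessel walls and from Descemet's membrane of the cornea. It dominated the collagen transcripts of these tumors. Tumor-like nuclei held 1326, 2029, 3384 and 3684 CPM. Both RPC animals lay above both RP animals, and the mean was 1678 ± 497 CPM in RP and 3534 ± 212 CPM in RPC (SD, n = 2). RPC exceeded RP by 1.02 on the log2 scale with a standard error of 0.26, and its adjusted p was 0.27 by edgeR's quasi-likelihood test with Benjamini-Hochberg adjustment, which did not pass the threshold of 0.05, while DESeq2 gave 0.0196. The 7 sublibraries of an animal spread little around these levels, RP1 running from 1268 to 1399 CPM, RP2 from 1889 to 2185, RPC1 from 3300 to 3508 and RPC2 from 3585 to 3753. Col8a1 alone held 83.9% (95% Wilson interval 83.6 to 84.3%), 85.5% (85.3 to 85.8%), 92.1% (92.0 to 92.3%) and 92.2% (92.1 to 92.3%) of all collagen transcripts in tumor-like nuclei, intervals that cover counting error only. Per kilobase of gene span its mean level of 20 CPM was the highest of the 44 genes, ahead of Col18a1 with 0.678, and per kilobase of exon it was 333 against 11.0 for Col18a1.

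Col8a1 lies on the minus strand of chromosome 16 (GRCm39, chr16:57444621-57575100), and a long noncoding RNA gene on the other strand, Gm59826, overlaps its start. Whether the counting used the strand is not given in the sources used here. The window around its start, 250 bases before and 50 after, is shown because this gene carries most of the collagen signal. It comes from RefSeq in build GRCm38.p6 (chr16:57754688-57754987, minus strand), a different build from that of the counts, and capitals mark GGGCGG, the core of the GC box, on either strand.

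Col8a1: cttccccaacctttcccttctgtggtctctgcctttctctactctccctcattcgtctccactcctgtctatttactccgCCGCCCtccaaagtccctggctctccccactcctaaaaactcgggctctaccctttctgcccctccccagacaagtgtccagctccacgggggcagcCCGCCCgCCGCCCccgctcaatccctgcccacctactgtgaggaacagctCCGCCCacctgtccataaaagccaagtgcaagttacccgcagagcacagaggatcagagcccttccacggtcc

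The window held 4 such matches and no TATAAA, and 60.3% of its bases were G or C. GGGCGG on either strand was found in 35.9% of the 27025 RefSeq promoter windows of the same length and in 22 of the 35 collagen genes with a window (62.9%). TATAAA was found in 14.2% of all windows and in 5 of the 35. The matches describe these letters only.

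**Figure D1:**
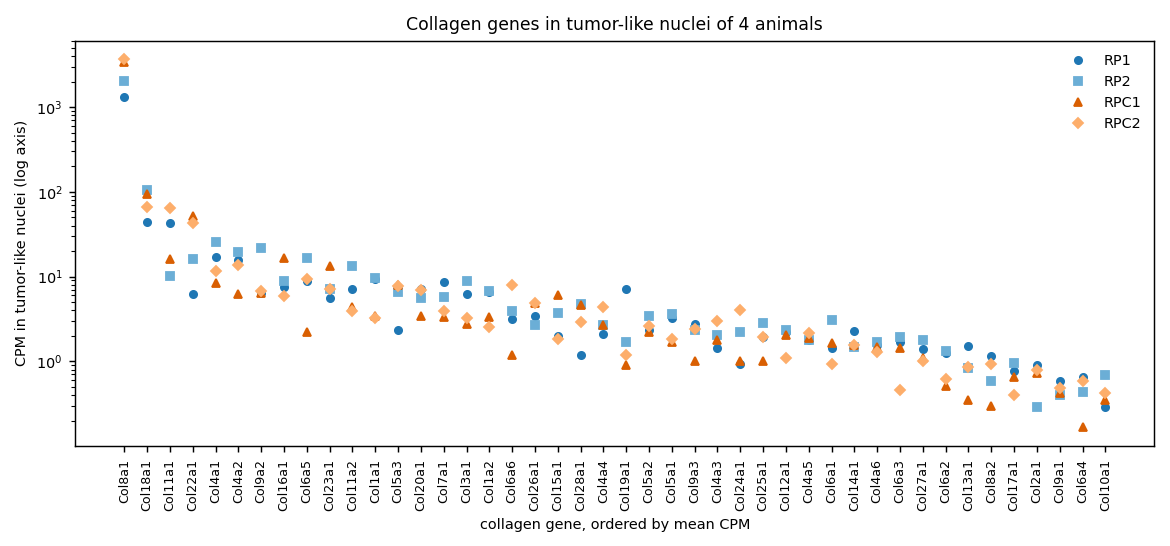
Level of each of the 44 collagen genes in tumor-like nuclei, in CPM on a log axis, with 1 point for each of the 4 animals. Col8a1 sits between 1326 and 3684 CPM, and Col22a1 separates the RP animals (6.19 and 16.1) from the RPC animals (52.5 and 42.7).

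Col8a1 also differed between tumor-like clusters of the same animal. Among clusters with at least 100 nuclei, those of RP1 ran from 1192 to 2129 CPM, those of RP2 from 897 to 4260, those of RPC1 from 1959 to 3880 and those of RPC2 from 1730 to 5141, and most such clusters held nuclei of a single animal. In the cluster that held nuclei of RP1, RP2 and RPC2, the levels were 2129, 2149 and 3536 CPM, and in the cluster that RP2 and RPC2 shared they were 4260 CPM over 112 nuclei and 5141 CPM over 3618 nuclei. After each nucleus was thinned to 1000 transcripts, 64.5, 74.5, 86.7 and 84.6% of tumor-like nuclei had a Col8a1 transcript (85.8, 89.6, 96.1 and 94.5% without thinning, 738, 693, 132 and 301 shallower nuclei being left out). Among T or NK cell-like nuclei, which should lack the gene, the share was 51.7% (78 of 151 nuclei of at least 1000 transcripts, median 2872, against a median of 2959 in tumor-like nuclei).

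In the other named classes Col8a1 went with the amount of neuroendocrine RNA. Over 44 points (11 classes in 4 animals) the summed neuroendocrine markers stood at 5.25 to 86.5% of the tumor-like level of the same animal (median 62.4%), and Col8a1 stood at 5.46 to 85.7% (median 58.7%), with a Spearman rho of 0.87. The points of an animal share its libraries and its tumor level. Shallow subclusters were chosen after seeing the data by a low median depth, and not by their marker levels. In them the markers stood at 7.18 to 40.7% and Col8a1 at 3.66 to 39.6% over 24 points, with medians of 15 and 11.9%. The shallow endothelial-like subclusters still held the markers at 34.4, 32.3, 40.7 and 24.9%. B cell-like nuclei held 865, 944, 2289 and 2445 CPM of Col8a1, with an adjusted p of 0.00139 by DESeq2, which called 0.108% of all genes there, while edgeR's quasi-likelihood test called none of the collagen genes in that class. The part of tumor RNA in the levels of other classes was not tested.

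**Figure D2:**
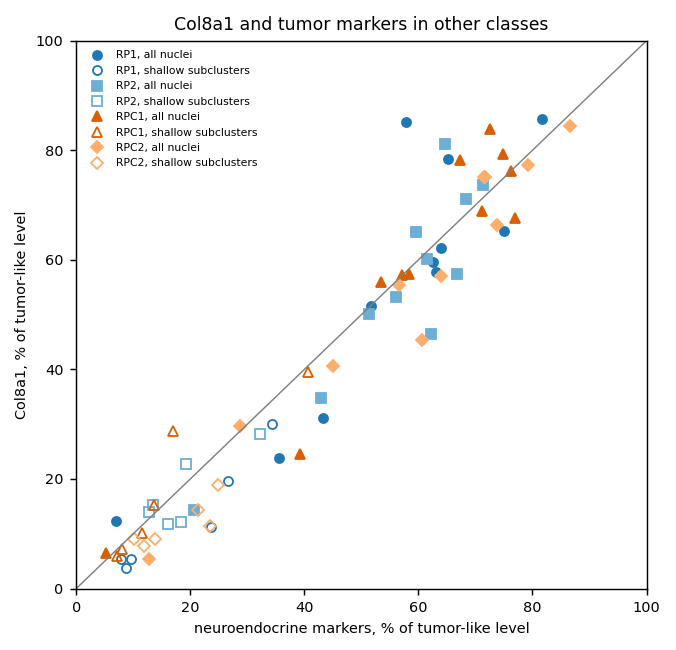
Col8a1 (vertical axis) against summed neuroendocrine markers (horizontal axis) in each non-tumor class and animal, both in percent of the tumor-like level of that animal. Filled symbols are all nuclei of a class, open symbols are its shallow subclusters, and the grey line marks equal percentages, which the points follow from 5.46 to 85.7% of Col8a1 for all nuclei.

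Across the 44 genes, the comparison of RPC with RP in tumor-like nuclei had more genes lower in RPC than higher, and none passed the adjusted threshold. All 44 passed the filter on low counts. edgeR's quasi-likelihood test with Benjamini-Hochberg adjustment called 0 of the 44, beside 0% of the 20115 genes tested. At an unadjusted p under 0.05, 2 collagen genes were higher in RPC (background 7.57%) and 9 were lower (background 7.88%). DESeq2 called 7 of them (Col1a1, Col1a2, Col3a1, Col4a1, Col8a1, Col11a2 and Col22a1), against 1.90% of all genes it tested. Both RPC animals lay above both RP animals for 5 genes (background 28.4%) and below them for 15 (background 22.3%), and with a log2 fold change of at least 0.58 in size the counts were 4 and 14 (background 11.1% and 11.9%). The median log2 fold change of the 44 was -0.49, where that of all tested genes was -0.0085. Fewer nuclei of a type and less RNA per nucleus cannot be told apart in sums over all nuclei, where 0 of the 44 were called, 4 were higher and 14 lower at an unadjusted p under 0.05 (background 7.58% and 7.93%), and DESeq2 called 9 (background 1.83%).

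**Figure D3:**
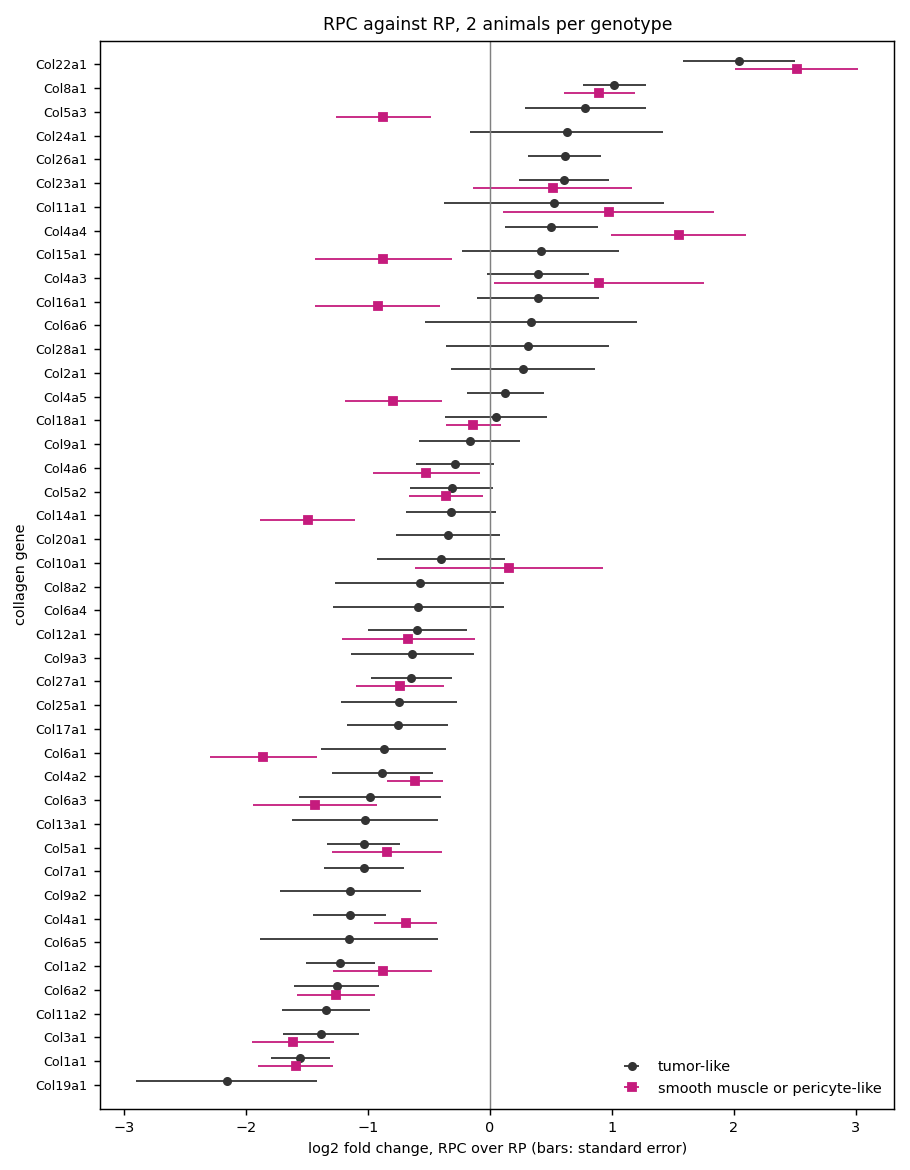
Log2 fold change of RPC over RP for the 44 collagen genes in tumor-like nuclei (circles) and for the 26 tested in smooth muscle or pericyte-like nuclei (squares), with bars for the standard error of edgeR's fit. In tumor-like nuclei Col22a1 (2.04) and Col8a1 (1.02) lie farthest to the right, and Col19a1 (-2.16) and Col1a1 (-1.55) farthest to the left.

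Col22a1, which encodes a fibril-associated collagen known from tissue junctions such as that of muscle and tendon, had the largest positive fold change. It stood at 6.19, 16.1, 52.5 and 42.7 CPM in tumor-like nuclei. The RPC animals were both above the RP animals, with a log2 fold change of 2.04 (SE 0.46; 1.52 to 2.87 when animals were left out in turn), for which adjusted p = 0.27 (edgeR's quasi-likelihood test with Benjamini-Hochberg adjustment) and 0.0012 (DESeq2). By tumor-like cluster of at least 100 nuclei it ran from 4.82 to 29.8 CPM in RP and from 33.3 to 54.4 in RPC. The value of 29.8 rested on 9 transcripts in 112 nuclei of RP2, and clusters of an animal are no further replicates. In smooth muscle or pericyte-like nuclei its levels of 4.56, 8.68, 36.5 and 45.8 CPM were also higher in both RPC animals. These were 73.8, 53.8, 69.5 and 107% of the tumor-like level of the same animal. Neuroendocrine markers stood there at 65.2, 64.7, 74.8 and 71.5% of that level, and the part of tumor RNA was not tested. Of all its transcripts 84.2% were counted in tumor-like nuclei, which held 79.5% of the transcripts of all genes. Col5a3, a fibrillar chain, was at 2.35, 6.5, 7.94 and 7.81 CPM, a log2 fold change of 0.78 with a standard error of 0.50, and RP2 was close to the RPC animals, while in smooth muscle or pericyte-like nuclei it was at 178, 115, 120 and 52.1 CPM (log2 fold change -0.87, SE 0.39). Col26a1 was at 3.44, 2.65, 4.82 and 4.89 CPM (log2 fold change 0.61, SE 0.30), a difference of less than 3 CPM.

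Several fibrillar chains of interstitial matrix were lower in both RPC animals. Col1a1, which encodes the main chain of type I collagen, was at 9.26, 9.70, 3.43 and 3.28 CPM in tumor-like nuclei. Animals of a genotype lay close together, and the log2 fold change was -1.55 (SE 0.24; adjusted p = 0.26 by edgeR's quasi-likelihood test with Benjamini-Hochberg adjustment, 8.1e-05 by DESeq2). Its partner chain Col1a2 was at 6.55, 6.79, 3.38 and 2.55 CPM with a log2 fold change of -1.23 (SE 0.28). Col3a1, the type III chain that co-assembles with type I fibrils, was at 6.26, 8.94, 2.77 and 3.26 CPM (log2 fold change -1.39, SE 0.31). Col5a1, whose product helps to nucleate fibrils, was at 3.29, 3.67, 1.68 and 1.85 CPM (-1.03, SE 0.30), and Col11a2 was at 7.24, 13.3, 4.41 and 3.98 CPM (-1.34, SE 0.36). Of the 11 fibrillar genes, 6 were lower in both RPC animals (background 22.3%) and 1 was higher (background 28.4%), with a median log2 fold change of -0.64 where that of all tested genes was -0.0085.

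Except for the fibrillar Col27a1, the rest of the genes that were lower in both RPC animals by at least 0.58 belonged to other families. Of the basement membrane chains, Col4a1 was at 17.0, 25.9, 8.42 and 11.6 CPM (log2 fold change -1.15, SE 0.30) and Col4a2 at 15.9, 19.5, 6.30 and 13.6 (-0.88, SE 0.41). The type VI chains Col6a2, at 1.27, 1.34, 0.517 and 0.616 CPM, and Col6a3, at 1.70, 1.93, 1.44 and 0.462 CPM, had log2 fold changes of -1.26 (SE 0.35) and -0.98 (SE 0.58), the latter running from -1.99 to -0.39 when animals were left out in turn. Col7a1, the chain of the anchoring fibrils below stratified epithelia, was at 8.58, 5.70, 3.34 and 3.92 CPM (-1.03, SE 0.33). The remaining genes of this group were Col12a1, Col17a1, Col19a1 and Col27a1, with log2 fold changes from -2.16 to -0.59. Of these, Col19a1 was high in RP1 alone, with 7.24, 1.71, 0.905 and 1.19 CPM, and its fold change ran from -2.86 to -0.74 when animals were left out in turn.

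In the tumor-like nuclei the smooth muscle or pericyte markers and the mesothelial markers, in sum, were also lower in both RPC animals, and the fibroblast markers were not. The 13 smooth muscle or pericyte markers summed to 24.2, 19.3, 17.7 and 15.4 CPM, and the 7 mesothelial markers to 7.20, 7.41, 2.75 and 3.5 CPM, while the 12 fibroblast markers summed to 99.2, 88.6, 202 and 105. Most of the fibroblast sum came from Ces1d (69.3, 38.7, 170 and 73.8 CPM) and, in RP2, also from Dcn (3.40, 30.3, 2.92 and 5.33 CPM). Of these lists, 4 of 13, 5 of 7 and 1 of 12 markers were lower in both RPC animals, where 22.3% of all tested genes were. Higher in both were 1 smooth muscle or pericyte marker, 1 mesothelial marker and 3 fibroblast markers (28.4% of all tested genes). No marker of the 3 lists was at 0 in all animals. In percent of the smooth muscle or pericyte-like level of the same animal, the summed markers stood at 1.26, 1.11, 0.949 and 0.868%, Col1a1 at 1.49, 1.65, 1.20 and 2.19%, and Col3a1 at 1.18, 1.45, 1.01 and 2.52%. Other collagen genes lay farther from the markers. Col4a1 was above them at 3.74, 4.78, 2.07 and 4.40%, as was Col4a2 at 3.88, 5.76, 2.10 and 5.77%. Col5a2 was below them at 0.546, 0.598, 0.409 and 0.848%. Only 31.9% of Col1a1 and 27.0% of Col3a1 transcripts were counted in tumor-like nuclei. The part of stromal RNA in the tumor-like values was not tested.

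Col1a1, Col3a1, Col6a1, Col6a2 and Col6a3 were lower in both RPC animals in the smooth muscle or pericyte-like nuclei, which held them at much higher levels than tumor-like nuclei. Col1a1 was at 624, 588, 286 and 150 CPM there, which gave -1.59 on the log2 scale (SE 0.31; adjusted p = 0.24 by edgeR's quasi-likelihood test with Benjamini-Hochberg adjustment, 0.0104 by DESeq2), and Col3a1 was at 531, 617, 276 and 129 CPM (-1.61, SE 0.34; 0.0171 by DESeq2). Both RPC animals were below both RP animals for each gene. These chains of type VI collagen, which forms beaded filaments around mesenchymal cells, had the same order, with Col6a1 at 119, 117, 51.6 and 14.6 CPM, Col6a2 at 116, 95.5, 60.4 and 33.3 CPM and Col6a3 at 271, 300, 180 and 41.7 CPM, and RPC2 was the lowest animal for all of them. Col14a1, a fibril-associated chain, was at 234, 130, 93.1 and 45.8 CPM. Only 26 of the 44 genes passed the filter on low counts in this class, so counts over them are a description. edgeR's quasi-likelihood test with Benjamini-Hochberg adjustment called 0 of the 26 (0.0480% of the 8325 genes tested). Of the 26, 3 were higher and 8 lower at an unadjusted p under 0.05 (5.97% and 6.83%), and 12 were lower in both RPC animals by at least 0.58 (10.1%). DESeq2 did not use this filter and called 2 of 44 collagen genes (0.127% of 21302 genes). The nuclei of this class made up 1.1, 0.935, 0.58 and 0.630% of the nuclei, and the smooth muscle or pericyte markers within it summed to 1923, 1739, 1865 and 1777 CPM. Of these 13 markers, 5 were lower and 2 higher in both RPC animals, beside 1297 and 2570 of the 8325 genes tested. Sums of other marker lists also lay apart by genotype in these nuclei. The 12 endothelial markers summed to 540, 376, 338 and 252 CPM, with 2 lower and 1 higher in both RPC animals. The 12 macrophage or monocyte markers summed to 145, 137, 101 and 91.7 CPM, with 5 lower and 0 higher. The 7 mesothelial markers summed to 39.6, 39.1, 88.1 and 64.6 CPM, with 1 lower and 4 higher. Among further lists with higher sums in both RPC animals were the ciliated (36.5, 32.6, 74.2 and 77.1 CPM), club (13.7, 34.7, 74.2 and 81.3 CPM) and T or NK cell markers (618, 538, 1047 and 836 CPM). Neuroendocrine markers stood there at 65.2, 64.7, 74.8 and 71.5% of the tumor-like level, and the part of these other RNAs in the result was not tested.

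Some collagen genes differed between single tumors rather than between genotypes. Col11a1, a chain of type XI collagen that is known from cartilage and from tumor stroma, was at 43.1, 10.1, 16.0 and 63.7 CPM in tumor-like nuclei, high in RP1 and RPC2. Its level also differed between clusters of the same animal, RP1 clusters running from 8.46 to 68.0 CPM, RP2 clusters from 5.48 to 43.6, RPC1 clusters from 6.97 to 77.2 and RPC2 clusters from 20.9 to 100. Sublibraries of an animal stayed close together, at 36.8 to 55.2 CPM in RP1 and 58.5 to 70.4 in RPC2. Col6a5, a type VI chain, was at 8.79, 16.5, 2.25 and 9.47 CPM, lowest in RPC1, and its relative Col6a6 was at 3.15, 3.89, 1.18 and 7.99 CPM. Col18a1, whose product is a heparan sulfate proteoglycan of basement membranes and the source of endostatin, was at 44.4, 105, 94.8 and 65.8 CPM, with RP1 and RPC2 below RP2 and RPC1. Col9a2 was singled out after its values were seen. It was at 6.33, 21.8, 6.33 and 6.82 CPM, so that RP2 stood 3.45-fold above the lowest animal, while its 10 neighbours within 1 Mb had a median log2 difference of RP2 from the other animals of -0.03.

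The remaining collagen genes were low in tumor-like nuclei or differed little. Col4a3, Col4a4, Col4a5 and Col4a6 lay between 1.30 and 4.42 CPM in each animal. Col2a1, Col6a4, Col8a2, Col9a1 and Col10a1 stayed at or below 1.16 CPM, and Col16a1 was highest in RPC1 with 16.6 CPM against 5.92 to 8.86 in the other animals. Col9a3, Col20a1, Col25a1 and Col28a1 lay between 0.997 and 7.13 CPM with overlapping groups. Col10a1 and Col9a3 overlap protein-coding genes in the GRCm39 annotation, as do Col18a1 and Col6a6, so their reads are uncertain where the counting could not use the strand.

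**Figure D4:**
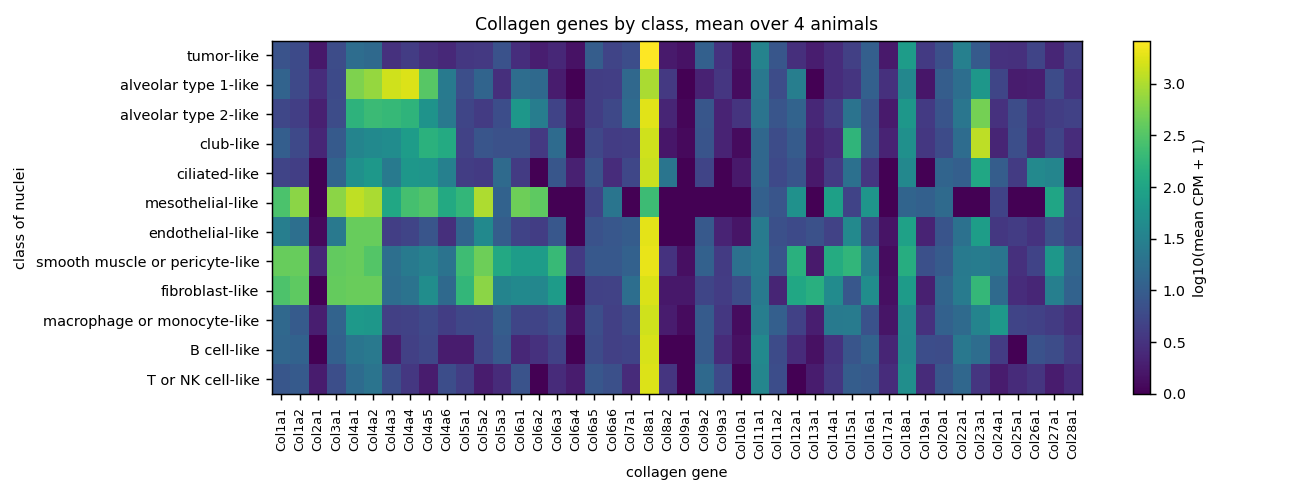
Mean level over the 4 animals of the 44 collagen genes (columns) in each marker-defined class (rows), as log10(mean CPM + 1) by color. Col4a3 and Col4a4 stand out in alveolar type 1-like nuclei (1496 and 1744 CPM), Col23a1 in club-like nuclei (1184 CPM) and Col8a1 in tumor-like nuclei (2606 CPM).

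For each gene, only classes with at least 30 of its counts were ranked by mean level. Among these, 13 of the 44 genes were highest in tumor-like nuclei, 10 in smooth muscle or pericyte-like, 7 in mesothelial-like, 3 in alveolar type 1-like and 3 in macrophage or monocyte-like nuclei. Rare genes reach that limit most easily in tumor-like nuclei, which held 79.5% of the transcripts. Col9a2, ranked highest there at 10.3 CPM, averaged 13.7 CPM in T or NK cell-like nuclei from 9 counts. The remaining 8 belonged to alveolar type 2, club, fibroblast, B cell and ciliated-like nuclei. The levels describe the classes, which were clustered on the same nuclei, so no test of a class against the rest was made.

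The 6 type IV chains are encoded as 3 head-to-head pairs. On GRCm39, Col4a1 (chr8:11248423-11362826, minus strand) and Col4a2 (chr8:11362471-11499287, plus strand) overlap at their starts, as do Col4a4 (chr1:82426144-82564800, minus) and Col4a3 (chr1:82564642-82699780, plus). Col4a6 (chrX:139948399-140257072, minus) and Col4a5 (chrX:140258354-140472231, plus) do not overlap but lie next to each other. The RefSeq windows of Col4a1 (GRCm38.p6, chr8:11312777-11313076, minus strand) and Col4a2 (chr8:11312555-11312854, plus strand) are shown because they share 78 bases, marked by capitals.

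Col4a1: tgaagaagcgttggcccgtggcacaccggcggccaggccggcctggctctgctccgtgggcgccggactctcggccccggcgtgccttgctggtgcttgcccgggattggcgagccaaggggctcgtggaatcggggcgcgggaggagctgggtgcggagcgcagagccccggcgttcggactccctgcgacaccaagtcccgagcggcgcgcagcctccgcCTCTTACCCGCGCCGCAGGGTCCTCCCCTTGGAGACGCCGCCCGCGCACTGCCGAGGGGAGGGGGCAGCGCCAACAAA
Col4a2: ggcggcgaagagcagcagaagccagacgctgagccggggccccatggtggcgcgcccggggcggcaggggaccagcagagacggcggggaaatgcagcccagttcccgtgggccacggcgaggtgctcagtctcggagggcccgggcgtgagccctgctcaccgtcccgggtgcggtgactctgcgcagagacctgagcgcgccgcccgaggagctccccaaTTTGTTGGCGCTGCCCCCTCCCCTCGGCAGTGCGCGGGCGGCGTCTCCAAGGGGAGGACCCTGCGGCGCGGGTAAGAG

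The windows held 1 and 3 matches of GGGCGG on either strand and no TATAAA. Over the classes and animals with at least 20 counts of the pair, Col4a2 stood at 0.627 to 2.09 times Col4a1 (median 0.962, 36 points, Spearman rho 0.96), and Col4a4 at 0.521 to 3.00 times Col4a3 (median 1.34, 21 points, rho 0.98). For Col4a6 over Col4a5 the ratio ran from 0.0294 to 1.12 (median 0.548, 26 points, rho 0.72). The points share animals, and the ratios are of CPM without correction for gene length.

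**Figure D5:**
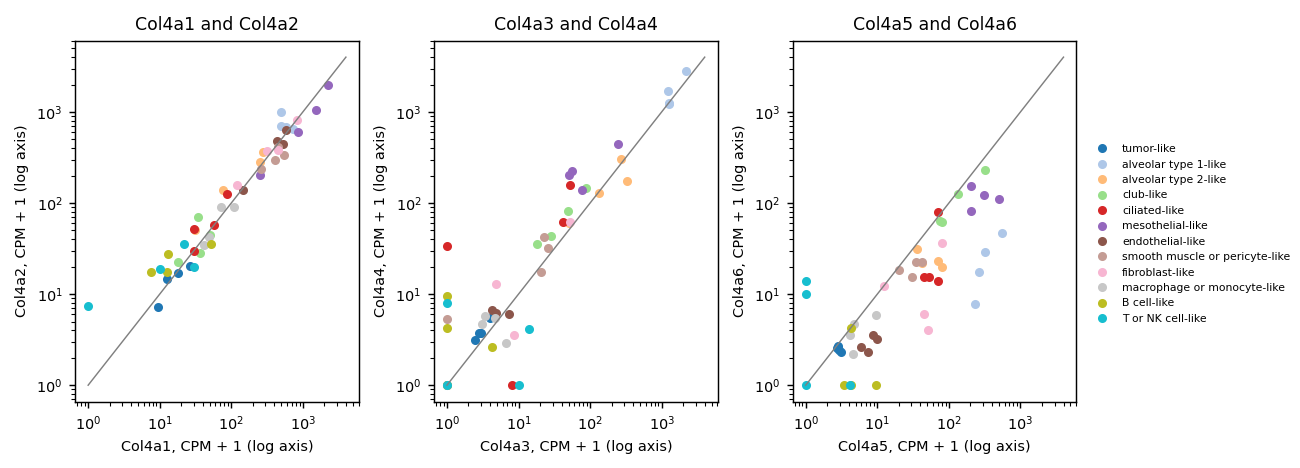
Levels (CPM + 1, log axes) of the partners of each head-to-head type IV pair, with 1 point per class and animal and a grey line for equal levels. Where the genes are well counted, Col4a1 with Col4a2 and Col4a3 with Col4a4 follow the line, whereas alveolar type 1-like nuclei (Col4a5 229 to 548 CPM, Col4a6 6.73 to 45.6 CPM) lie farther below it than club-like nuclei do.

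Alveolar type 1-like nuclei, named by markers of the thin cells that line the alveoli, held the chains of the mature alveolar basement membrane. Col4a3 was at 1266, 1280, 2198 and 1241 CPM, Col4a4 at 1259, 1227, 2791 and 1697 CPM, and Col4a5 at 229, 260, 548 and 318 CPM. RPC1 was the highest animal for each of them, and the RP and RPC animals overlapped for Col4a3. Col4a6 was at 6.73, 16.3, 45.6 and 28.0 CPM in the same nuclei. Thinned to 1000 transcripts, 77.1% of 227 nuclei had a Col4a3 transcript (95% Wilson interval 71.2 to 82.1%), 79.7% had Col4a4, 27.3% had Col4a5 and 3.96% had Col4a6, where Col4a3 was found in 0 of 151 T or NK cell-like nuclei, which at that depth allows a share of up to 1.99%. Without thinning 1.32% of those 151 had a Col4a3 transcript. The median depths were 3402 and 2872 transcripts, and neuroendocrine markers stood at 35.5, 42.9, 39.3 and 56.6% of the tumor-like level in alveolar type 1-like nuclei. Only 9.43% of all Col4a3 transcripts were counted in tumor-like nuclei.

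Club-like nuclei, named by markers of secretory airway cells, held Col23a1, which encodes a membrane-spanning collagen. Its level was 541, 526, 890 and 2777 CPM, above the tumor-like level of 5.54, 7.23, 13.2 and 7.07 CPM in every animal. Both RPC animals were above both RP animals, at 1.67 on the log2 scale (SE 0.57; adjusted p = 0.76 by edgeR's quasi-likelihood test with Benjamini-Hochberg adjustment) and from 0.613 to 2.270 when animals were left out in turn. Neuroendocrine markers stood at 62.5, 71.3, 76.2 and 28.7% of the tumor-like level in these nuclei and the 8 club markers summed to 1382, 961, 1087 and 4653 CPM. The animals' club-like nuclei also lay in different clusters, 1 of which held 16, 89, 5 and 2 nuclei of the animals and another 1, 16, 250 and 9. The part of these differences in the result was not tested. The share of club-like nuclei with a Col23a1 transcript after thinning was 34.5, 45.6, 61.2 and 82.4%, over 29, 171, 704 and 85 nuclei, and it was 0 of 151 in T or NK cell-like nuclei (Col23a1 was found in 1.99% of them without thinning). In the shallow subclusters the levels were 1823, 1585, 3379 and 3791 CPM, with the RPC animals again higher. Club-like nuclei made up 0.371, 1.98, 6.61 and 0.876% of the nuclei, and over all nuclei Col23a1 stood at 15.1, 47.0, 156 and 58.0 CPM, highest in RPC1 as the club-like share was. Unlike the alveolar type 1-like nuclei, club-like nuclei held both partners of the X-linked pair, Col4a5 at 132, 74.3, 78.9 and 317 CPM and Col4a6 at 125, 62.4, 61.7 and 230 CPM. Col15a1, a multiplexin of basement membrane zones, was at 160, 83.0, 199 and 239 CPM.

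Col4a1 and Col4a2, the chains found in nearly all basement membranes, were high in classes of vessels, of mesothelium and of alveolar type 1 cells. Col4a1 was at 572, 729, 487 and 502 CPM in alveolar type 1-like nuclei, at 584, 532, 432 and 147 CPM in endothelial-like nuclei, at 453, 541, 406 and 263 CPM in smooth muscle or pericyte-like nuclei, and at 1548, 861, 2278 and 251 CPM in mesothelial-like nuclei, of which there were only 36. In endothelial-like nuclei both RPC animals were below both RP animals for Col4a1, at -1.06 on the log2 scale (SE 0.41; adjusted p = 0.35 by edgeR's quasi-likelihood test with Benjamini-Hochberg adjustment). In their shallow subclusters both RPC animals were again below, at 1182, 1284, 933 and 543 CPM. The fold change ran from -1.96 to -0.47 when animals were left out in turn, and neuroendocrine markers stood at 63.9, 68.3, 71.1 and 79.2% of the tumor-like level in all endothelial-like nuclei. Col4a2 overlapped between the genotypes there, at 632, 443, 480 and 138 CPM, but was lower in both RPC animals in the shallow subclusters (1325, 1088, 1031 and 560 CPM). In alveolar type 1-like nuclei Col4a2 was at 687, 654, 1004 and 699 CPM, with RPC1 the highest and RPC2 barely above RP1. The log2 fold change there was 0.26 (SE 0.27; adjusted p = 0.84 by the same edgeR test). Alveolar type 2-like nuclei, named by markers of the surfactant-making cells, had Col4a1 at 277, 253, 76.0 and 30.2 CPM, with a log2 fold change of -2.49 (SE 0.43), for which adjusted p = 0.25 (the same edgeR test) and 0.00763 (DESeq2, which called 0.105% of all genes there). The 9 alveolar type 2 markers summed to 4188, 6213, 4076 and 1052 CPM in these nuclei and neuroendocrine markers stood at 57.9, 56.1, 58.4 and 86.5% of the tumor-like level, whose part in the difference was not tested. Restricted to the shallow subclusters, Col4a1 was at 630, 447, 223 and 148 CPM in these nuclei, and Col4a2 was at 873, 535, 445 and 406 CPM. Macrophage or monocyte-like nuclei had Col4a2 at 88.5, 90.6, 33.6 and 41.1 CPM, with both RPC animals below both RP animals at -1.36 on the log2 scale (SE 0.24; adjusted p = 0.27 by edgeR's quasi-likelihood test with Benjamini-Hochberg adjustment). The 12 endothelial markers summed there to 202, 249, 193 and 145 CPM and neuroendocrine markers stood at 63.0, 61.5, 53.4 and 64.0% of the tumor-like level, and the part of either RNA was not tested. None of these differences of Col4a1 and Col4a2 passed the adjusted threshold in edgeR.

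Fibroblast-like nuclei, 137 in all and too few in RP1 for a fit, led with Col5a2, a chain that regulates the width of type I fibrils, at 910, 576, 828 and 343 CPM, Col13a1, a membrane-spanning collagen, at 193, 131, 126 and 121 CPM, and Col1a2 at 467, 312, 573 and 132 CPM. RPC2 was the lowest animal for each of them, and neuroendocrine markers stood at 51.6, 59.5, 57.1 and 71.6% of the tumor-like level there. Mesothelial-like nuclei had Col5a2 at 733, 938, 1278 and 955 CPM and Col6a1 at 652, 569, 528 and 101 CPM. Macrophage or monocyte-like nuclei had Col24a1, a fibrillar chain, at 68.5, 67.2, 89.5 and 49.2 CPM, where tumor-like nuclei averaged 2.05, and the genotypes overlapped. Alveolar type 2-like nuclei held Col23a1 at 637, 462, 540 and 401 CPM. Ciliated-like nuclei had Col26a1 at 72.2, 51.7, 17.4 and 16.4 CPM over 76 nuclei, and Col4a5 at 43.3, 51.7, 69.5 and 69.6 CPM.

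Genes of collagen assembly and of collagen binding were described from lists chosen with earlier results of these data known. In tumor-like nuclei edgeR's quasi-likelihood test with Benjamini-Hochberg adjustment called 0 genes of the 5 lists. Of the 22 assembly genes, which modify and fold the chains, 0 were higher and 7 lower at an unadjusted p under 0.05 (background 7.57% and 7.88%), 2 were higher and 11 lower in both RPC animals (background 28.4% and 22.3%, which also holds for the other lists), and the median log2 fold change was -0.44 against -0.0085 for all tested genes, with none called by DESeq2. Of 11 receptor genes tested, 1 was higher and 5 lower in both RPC animals (median -0.47), and of 17 basement membrane partners 1 was higher and 8 lower (median -0.32). The 13 processing and crosslinking genes tested had 1 higher and 3 lower (median 0.19), and the 6 proteases had 1 and 1 (median -0.32). DESeq2 called 4 genes of the lists (background 1.90%), the receptors Ddr2 and Itga10, the laminin chain Lama4 and the protease Mmp16. Lama4, a chain of vessel laminins, was at 5.35, 5.56, 14.8 and 10.1 CPM (log2 fold change 1.13, SE 0.28). Mmp14, a membrane-bound protease that cleaves fibrillar collagen, was at 13.5, 15.9, 20.7 and 25.6 CPM (0.60, SE 0.21). Ddr2, a receptor for fibrillar collagen, was at 22.5, 13.6, 5.69 and 5.26 CPM (-1.78, SE 0.32), with both RPC animals below both RP animals. Mmp16 was at 56.5, 15.7, 3.55 and 12.5 CPM (-2.23, SE 0.85), highest in RP1. Loxl4, a crosslinking enzyme of the lysyl oxidase family, was below 1 CPM in all animals, at 0.398, 0.509, 0.0554 and 0.132 CPM.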

How the data were processed

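The collagen genes were measured by snRNA-seq of lung tumors of 4 mice. The authors aligned reads to GRCm39 with the Parse pipeline, separated animals by barcoding well and deposited unnormalized counts of unique transcripts per gene and nucleus, 1 matrix per animal pooling 7 sublibraries. The aligner settings and use of strand are not given in the sources used here. The animals had 32299909 (RP1), 35420582 (RP2), 72446861 (RPC1) and 57515082 (RPC2) transcripts in 8413, 8892, 10865 and 10183 nuclei. Of the columns in the nuclei tables, 9 were not used here, and neither was the assignment of tumor nuclei made in the study.

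Nuclei with at least 300 counts, at most 10% mitochondrial counts and at most 12000 genes were kept (38254 of 38353). Counts were scaled, 2000 variable genes and 20 principal components were used, and nuclei were clustered with leidenalg 0.10.2 at resolution 0.4 into 18 clusters. No collagen gene was among the variable genes. Classes were named from fixed markers by a score rule set after seeing the data. No doublet caller was run. Very deep nuclei were kept, and an alternative left them out of the tumor-like class.

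Counts were summed per animal and class and tested with edgeR 4.0.16 (R 4.3.3; TMM scaling, filterByExpr, quasi-likelihood F test with Benjamini-Hochberg adjustment, threshold 0.05), on all genes that passed the filter. A class was fitted where each animal had at least 20 nuclei. DESeq2 1.42.0, no filter, other scaling, other cell filters, other clustering and leaving out each animal were alternatives, and the fit scripts were tested on simulated data. CPM are plain counts over transcripts, and TMM factors of the fits ranged from 0.937 to 1.07. Shares of nuclei came from nuclei of at least 1000 counts thinned to 1000. Tables were handled with Python 3.11.15, numpy 2.4.6, pandas 2.3.3 and scipy 1.17.1. RefSeq promoter windows (GRCm38.p6) matched 35 of the 44 genes by symbol, and gene positions came from the GRCm39 annotation.

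The members and the gene lists were chosen with earlier results of these data known. Named were Col8a1, genes whose genotypes did not overlap in tumor-like nuclei with a log2 fold change of at least 0.58 in size, genes whose highest animal was at least 4 times the lowest with at least 10 CPM, the 3 genes of each class (at least 30 counts) with the largest ratio to the tumor-like level, and their pair or trimer partners. Of the gene lists, members called in a comparison were named, and otherwise the 2 largest differences in each direction.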

Additional observations from a re-analysis of the deposited data

Results flagged for a closer look

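Some collagen genes had RPC animals above RP animals in 1 class and below them in another. These differences between classes were not tested. Col3a1 was at 2.19, 22.0, 29.0 and 37.9 CPM in endothelial-like nuclei (RP1, RP2, RPC1 and RPC2), where 1, 17, 23 and 46 transcripts were counted, while both RPC animals were below both RP animals in tumor-like, macrophage or monocyte-like and smooth muscle or pericyte-like nuclei. Its log2 fold change differed by 2.591 from that in tumor-like nuclei, by 2.607 from that in macrophage or monocyte-like nuclei (11.8, 19.3, 4.35 and 8.81 CPM) and by 2.819 from that in smooth muscle or pericyte-like nuclei.

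Col6a3 was at 0, 12.4, 28.0 and 18.0 CPM in club-like nuclei, from 0, 24, 303 and 6 transcripts. In the shallow club-like subclusters Col6a3 was at 0, 28.4, 99.7 and 28.5 CPM, with RP2 and RPC2 nearly equal. Its log2 fold change differed by 2.255 from that in tumor-like nuclei, by 2.726 from that in macrophage or monocyte-like nuclei (9.45, 6.77, 3.73 and 2.20 CPM) and by 2.708 from that in smooth muscle or pericyte-like nuclei. In RP1 the 0 transcripts came from 31 club-like nuclei. Col4a5 was at 229, 260, 548 and 318 CPM in alveolar type 1-like nuclei and at 33.5, 41.3, 18.9 and 29.2 CPM in smooth muscle or pericyte-like nuclei, and the log2 fold changes differed by 1.489.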

How the results depend on the processing

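edgeR's quasi-likelihood test called 0 genes and 0 collagen genes in tumor-like and in all kept nuclei. DESeq2 called 696 genes and 7 collagen genes in tumor-like nuclei and 691 and 9 in all kept nuclei, and edgeR without a filter called 9 genes in tumor-like nuclei and 1551 genes with 13 collagen genes in all kept nuclei. Leaving out an animal gave 0 to 3 genes in tumor-like nuclei, the 3 without RPC2. In other classes, where the main count of collagen genes was 0, DESeq2 called 1 (alveolar type 2), 1 (B cell) and 2 (smooth muscle or pericyte), and no filter gave 1 (alveolar type 1, beside 53 of 19053 genes), 6 (alveolar type 2, 272 of 23851), 2 (B cell, 107 of 19533), 4 (endothelial, 335 of 22180), 9 (macrophage or monocyte, 343 of 24555) and 10 (smooth muscle or pericyte, 305 of 21302). Leaving out an animal gave 0 to 9 in alveolar type 2 (9 without RPC1, beside 697 of 9302 genes), 0 to 5 in club (5 without RPC1, beside 423 of 7259, and 3 without RPC2, beside 321 of 12827), and 0 to 1 in alveolar type 1 (without RP2), B cell (without RP2 or RPC2) and smooth muscle or pericyte-like nuclei (without RPC2). Without an animal the remaining lone sample was assumed to vary like the other group, and the causes of these changes were not tested.

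Signs changed when an animal was left out, in tumor-like nuclei for Col4a3 (-0.032 to 0.744), Col6a4 (-1.751 to 0.098), Col6a6 (-1.630 to 1.156), Col11a1 (-0.802 to 1.957), Col14a1 (-0.599 to 0.046), Col15a1 (-0.647 to 1.036), Col18a1 (-0.428 to 0.784) and Col24a1 (-0.716 to 1.358). In all kept nuclei it was so for Col6a6 (-1.810 to 1.290), Col11a1 (-0.963 to 1.971), Col13a1 (-1.310 to 0.131), Col15a1 (-1.060 to 1.718), Col18a1 (-0.382 to 0.667) and Col24a1 (-0.797 to 0.038). These were log2 fold changes of RPC over RP. Without the neuronal cluster, an alternative chosen after seeing the data, that of Col15a1 in tumor-like nuclei was -0.009.

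The labels do not say whether animals of the same number were paired. Deviations from the genotype means had a correlation of -0.057 in tumor-like nuclei between animals of the same number, which cannot settle a matter of design. A replicate block gave 0 calls in tumor-like nuclei, 1 collagen gene in alveolar type 1-like nuclei, and log2 fold changes of Col6a6 of -0.209 in tumor-like and -0.221 in all kept nuclei. Of 990 log2 fold changes under all alternatives, 896 kept direction and side of the threshold, 73 came past it and 21 changed sign. Of the class levels, 34 moved by less than the spread between animals and 15 moved by more, all of them in the shallow subclusters. A level of 0 in a class of few nuclei limits only what this depth could show.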

Other observations

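A tumor-like cluster that leads with neuronal genes held 598 nuclei of RPC1 and had collagen levels unlike the other RPC1 clusters. Col11a1 was at 77.2 CPM there (6.97 and 7.42 in the other RPC1 clusters of at least 100 nuclei), Col23a1 at 50.7 CPM (7.58 and 8.25), Col15a1 at 21.0 CPM (3.79 and 4.34) and Col4a1 at 29.5 CPM (5.92 and 4.75). Col8a1 was at 1959 CPM, below the 3880 and 3088 CPM of those clusters. RP1, RP2 and RPC2 had 35, 40 and 31 nuclei in this cluster, each below the limit of 100 nuclei for giving a level. The levels are therefore those of a single tumor, and no test was made.

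Nuclei left without a name numbered 703, 657, 430 and 886 in RP1, RP2, RPC1 and RPC2. They held neuroendocrine markers at 53.7, 53.5, 50.6 and 60.7% of the tumor-like level. Their cluster was shallow, with a median depth ratio of 0.408 where the tumor-like class required at least 0.5. Their levels of Col1a1 were 86.7, 67.1, 61.7 and 25.1 CPM, and those of Col3a1 were 63.1, 90.3, 65.9 and 19.3 CPM, both lowest in RPC2.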
